A study of Mus musculus with 4 samples.

Results

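Tef and the genes of the circadian clock that it belongs with were examined in mouse granulosa cells (GCs), the somatic cells around the oocyte. The set held 10 genes of the 55385 in the count table, picked by symbol: Tef, Dbp, Hlf, Nfil3, Per1, Per2, Per3, Cry1, Clock and Ciart. Each symbol matched 1 Ensembl identifier, and all 10 passed the filter on low counts. Tef entered the set because its counts were higher with neurotrophin-4 (NT-4), so its own difference is given as a description without a test. The other 9 genes were listed for their place in the clock, to ask whether they were higher together with Tef.

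GCs came from preantral follicles of Kunming mice aged 12 to 14 days, grown in vitro for 6 days. Follicles of the NT4 group received NT-4 in the medium and those of the Control group did not, with 2 libraries in each. All follicles, Control included, were cultured with FSH and insulin. Each library is a bulk sample of the GCs left after oocytes were removed, and the study describes the samples of a group as coming from independent experiments. The time of day at which cells were collected is not given in the sources used here.

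The clock is a feedback loop of transcription in which the CLOCK protein and its partner, encoded by Arntl, bind E-box elements and switch on their own repressors, the period (Per) and cryptochrome (Cry) genes. Ciart encodes a further repressor of that pair. The loop also drives output genes. Among them are the proline and acidic amino acid-rich basic leucine zipper (PAR bZIP) factors encoded by Tef, Dbp and Hlf, which activate genes through D-box elements, and Nfil3, whose product represses through the same elements. Most of these transcripts rise and fall over the day in many tissues, the ovary among them.

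The stretch before each gene's start was searched for the elements named above. Sequences were taken from RefSeq (GRCm38.p6), as the 250 bases before each start listed, and 9 of the 10 genes were matched in the table of promoters used here, all but Per2. The letters searched were CACGTG for the E-box, TTATGTAA (TTACATAA on the other strand) and TTACGTAA for the D-box, and TGACGTCA for the cAMP response element. CACGTG, TTACGTAA and TGACGTCA read the same on both strands, and none of the motifs contains another. The sequences of Tef, Per3 and Ciart are printed with each match in capitals, Tef as the gene compared with the others, and Per3 and Ciart as the genes with more than 1 match in a window. The first start of Tef (chr15:81802423-81802672, plus strand), its other start (chr15:81811164-81811413, plus strand), Per3 (chr4:151044666-151044915, minus strand) and Ciart (chr3:95882229-95882478, minus strand) read as follows, 5′ to 3′ towards the start.
Tef start 1: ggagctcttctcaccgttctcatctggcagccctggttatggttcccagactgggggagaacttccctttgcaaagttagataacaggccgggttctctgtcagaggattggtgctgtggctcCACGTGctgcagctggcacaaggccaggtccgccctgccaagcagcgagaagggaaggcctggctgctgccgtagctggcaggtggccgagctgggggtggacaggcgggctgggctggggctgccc
Tef start 2: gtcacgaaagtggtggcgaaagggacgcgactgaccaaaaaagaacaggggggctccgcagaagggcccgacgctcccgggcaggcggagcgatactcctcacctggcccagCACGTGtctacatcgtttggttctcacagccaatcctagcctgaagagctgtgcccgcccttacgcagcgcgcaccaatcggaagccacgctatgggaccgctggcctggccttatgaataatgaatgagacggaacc
Per3: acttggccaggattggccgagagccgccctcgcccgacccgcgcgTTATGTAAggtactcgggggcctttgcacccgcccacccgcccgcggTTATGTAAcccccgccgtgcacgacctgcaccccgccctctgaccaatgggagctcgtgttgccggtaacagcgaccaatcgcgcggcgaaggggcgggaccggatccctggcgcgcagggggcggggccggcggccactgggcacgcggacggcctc
Ciart: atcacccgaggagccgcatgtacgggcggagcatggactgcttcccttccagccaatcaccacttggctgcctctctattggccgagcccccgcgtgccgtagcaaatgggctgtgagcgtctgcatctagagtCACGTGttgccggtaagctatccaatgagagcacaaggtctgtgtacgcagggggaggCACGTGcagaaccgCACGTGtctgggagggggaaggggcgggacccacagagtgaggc

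Both Tef windows held 1 E-box, beginning 127 and 138 bases before the start. Ciart held 3 of them, at 116, 58 and 44 bases before the start. Per1 held 1 at the first of its starts and Cry1 held 1. Of all 32851 windows in the table, 6.02% held CACGTG at least once and 0.0609% held it 3 times or more. Of the 9 genes searched, Per3 was the one with a D-box, which occurred there as TTATGTAA at 205 and 158 bases before the start. A D-box of either spelling was present in 0.931% of all windows, and TTATGTAA occurred at least 2 times in 0.0183%. Hlf held TGACGTCA 9 bases before its start, against 1.55% of windows overall. Dbp, Nfil3 and Clock held none of these letters in the windows searched. A match describes the sequence only, and the count table does not say from which start a transcript came. The starts in the table of promoters differ from the annotated start of the Tef gene, 81802421. By that annotation both Tef windows lie inside the gene.

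The 4 libraries held 49520092 to 78704020 counts, and 1 read pair was taken as 4 counts, an inference from the 45.4% to 46.2% of low counts that were multiples of 4. Read pairs, their intervals and floors given here rest on it. Both libraries numbered 2 were deeper than both libraries numbered 1. All 8 GC markers checked (among them Foxl2, Fshr and Inha) were present, with a summed level of 8440 to 12700 CPM. CPM stands for counts scaled to the size of the library, here with TMM factors. Each fold change compares NT4 with Control on the log2 scale, by edgeR's quasi-likelihood fit. Over all genes this fit called 0 of 19259 (0.00%) at the adjusted threshold of 0.05, and 383 (1.99%) were below 0.05 before adjustment. DESeq2 called 63 genes at the same adjusted threshold. The study's criterion asks for a fold above 2 or below 0.5 together with a P below 0.05. With P read here as the unadjusted p of the edgeR fit, 1.08% of genes met it.

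Tef, which activates D-box genes (ENSMUSG00000022389, GRCm38 chromosome 15, 81802421 to 81826863), was higher in both NT4 libraries than in both Control libraries. Control 1 held 34.6 CPM of it and Control 2 39.8, while NT4 1 held 77.0 and NT4 2 86.3. The Control mean was 37.2 ± 3.70 CPM and the NT4 mean 81.7 ± 6.63 CPM (SD, n = 2), a ratio of 2.19. Its log2 fold change was 1.13, and between libraries of the same number it was 1.15 for number 1 and 1.12 for number 2. With each library left out in turn it was 1.03 to 1.24. The counts behind these levels, 1737, 2938, 4798 and 6656, correspond to about 434 to 1664 read pairs per library. A gene annotated as antisense, Gm17597, shares 193 exon bases (2.45%) with Tef, and it held 12 counts in NT4 2 and 0 in the other libraries.

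In the same libraries 4 of 6 theca and stroma markers did not overlap between groups and were higher in NT4, where 13.4% of all genes tested did so. Summed, they reached 464 and 499 CPM in the Control libraries and 698 and 562 CPM in the NT4 libraries, and none of the 6 was at 0. The 4 were Cyp17a1, Col1a1, Dcn and Pdgfra, and the part of these cells in the level of Tef was not tested. For Cyp17a1 the gap was within rounding, with Control 2 and NT4 1 both at 134 CPM. Col1a1 was at 158 and 157 CPM in Control and at 257 and 161 CPM in NT4. Dcn was at 52.6 and 47.6 CPM against 64.2 and 67.1, and Pdgfra at 33.8 and 32.4 against 43.3 and 37.1. Ptch1 and Gli1 overlapped, and Ptch1 was lower in NT4 2 (114 CPM) than in either Control library (138 and 121 CPM). In bulk samples, fewer cells of a type and less RNA per cell cannot be told apart. Oocyte markers summed to 66.1 to 94.9 CPM over the 4 libraries, with 0 of 8 separated.

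**Figure D1:**
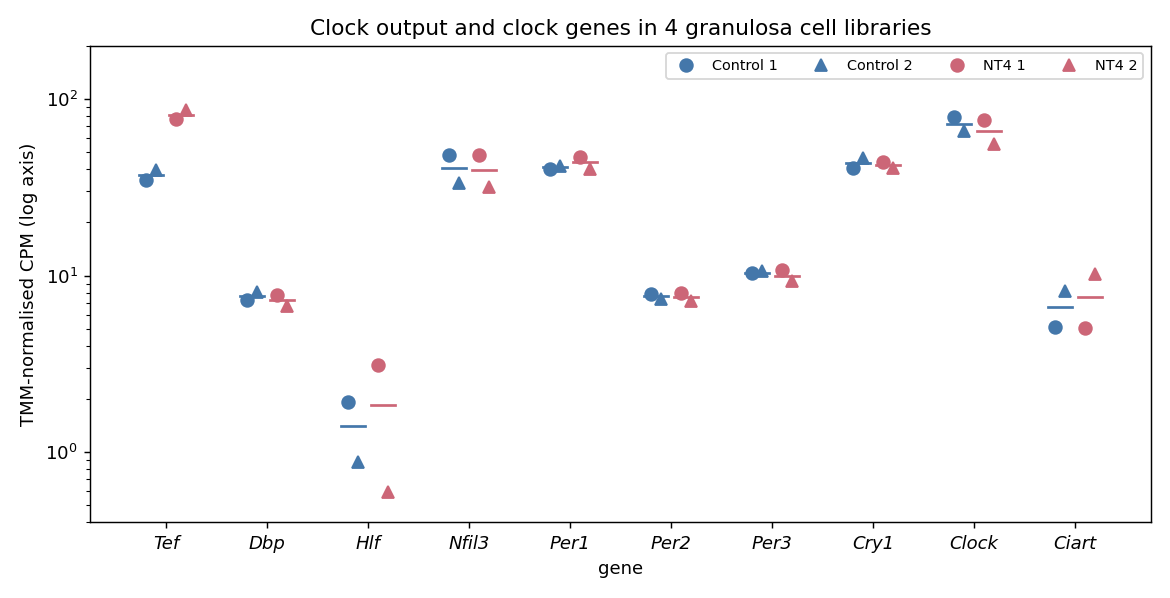
TMM-normalised CPM (log axis) of the 10 genes in each library, with Control in blue and NT4 in red, circles for libraries numbered 1 and triangles for those numbered 2, and a line at the mean of each group. Tef is the one gene whose NT4 points, 77.0 and 86.3 CPM, both lie above its Control points, 34.6 and 39.8 CPM.

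The other PAR bZIP genes did not separate the groups. Dbp, an activator through the same D-boxes (ENSMUSG00000059824, chromosome 7, 45705088 to 45710203), was at 7.25 and 8.03 CPM in the Control libraries and at 7.76 and 6.75 CPM in the NT4 libraries. The NT4 values lay one inside and one below the Control range. Its log2 fold change was −0.08 (SE 0.20, 95% interval −0.58 to 0.43), so the interval ended below a doubling, with an edgeR adjusted p of 0.9999, the value of all 9 genes tested here. Dbp shares 539 exon bases (18.0%) with Sphk2 on the opposite strand, and whether counting used strand is not given in the sources used here.

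Hlf, the remaining activator of the family (ENSMUSG00000003949, chromosome 11, 90336536 to 90390895), was the lowest gene of the set. Control 1 held 1.91 CPM and Control 2 0.881, while NT4 1 held 3.10 and NT4 2 0.597. The NT4 libraries enclosed both Control libraries, with NT4 1 highest and NT4 2 lowest. These levels rest on about 24, 16, 48 and 12 read pairs, and the exact 95% binomial interval of NT4 2 ran from 0.315 to 1.07 CPM of read pairs against 2.28 to 4.11 for NT4 1, for counting error only. Its log2 fold change was 0.40 (SE 0.83, 95% interval −1.70 to 2.51), an interval that holds both a doubling and a halving. Without NT4 1 it was −1.22 and without NT4 2 it was 1.15, so its sign depended on which NT4 library was kept.

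Nfil3, the repressor that competes for D-boxes (ENSMUSG00000056749, chromosome 13, 52967209 to 52981073), was at 47.9 and 33.3 CPM in the Control libraries and at 48.0 and 31.7 CPM in the NT4 libraries. The 2 groups gave almost the same pair of values, one high in the library numbered 1 and one low in the library numbered 2. Its log2 fold change was −0.03 (SE 0.27, 95% interval −0.72 to 0.67), with an edgeR adjusted p of 0.9999.

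Per unit of exon length, the PAR bZIP activators differed in level among themselves. With CPM divided by kilobases of annotated exon, Tef made up 61.9% and 64.3% of the summed level of Tef, Dbp and Hlf in the Control libraries and 76.2% and 82.4% in the NT4 libraries. The summed level was 7.11 and 7.88 CPM per kilobase in Control and 12.8 and 13.3 in NT4. Dbp and Hlf together stood at 2.71 and 2.81 CPM per kilobase in Control and at 3.06 and 2.34 in NT4, which enclose the Control values. Sums and shares that hold Tef restate the difference it was picked for and are no further evidence of it. Relative to Nfil3, the 3 activators summed to 0.301 and 0.480 in Control and to 0.542 and 0.852 in NT4, while Dbp and Hlf alone gave 0.115 and 0.171 against 0.129 and 0.15.

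The period genes encode repressors of the loop and were close to level between the groups. Per1, a member of the family readily induced by cAMP and glucocorticoid (ENSMUSG00000020893, chromosome 11, 69095217 to 69109960), was at 40.4 and 41.7 CPM in the Control libraries and at 47.2 and 40.4 CPM in the NT4 libraries, with NT4 1 the highest. On the log2 scale the fold change was 0.09 (SE 0.15, 95% interval −0.27 to 0.46). Per2 (ENSMUSG00000055866, chromosome 1, 91415982 to 91459324) was at 7.87 and 7.36 CPM in the Control libraries and at 7.97 and 7.13 CPM in the NT4 libraries, which lie just outside the Control pair on either side. With all 4 libraries, its log2 fold change of −0.01 (SE 0.19, 95% interval −0.50 to 0.47) was the smallest in size of the 10. With a library left out it ranged from −0.10 to 0.065, and this rank depended on the libraries kept. Per3, whose promoter carries both D-boxes printed above (ENSMUSG00000028957, chromosome 4, 151003652 to 151044665), was at 10.3 and 10.6 CPM in the Control libraries and at 10.7 and 9.35 CPM in the NT4 libraries. The NT4 libraries enclosed the Control libraries, and the log2 fold change was −0.06 (SE 0.18, 95% interval −0.50 to 0.39). For all 3 the interval ended below a log2 fold change of 0.5.

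Cry1, a cryptochrome repressor of the same loop (ENSMUSG00000020038, chromosome 10, 85131700 to 85185064), was at 40.5 and 46.4 CPM in the Control libraries and at 43.9 and 40.5 CPM in the NT4 libraries. The groups overlapped, with a log2 fold change of −0.04 (SE 0.14, 95% interval −0.41 to 0.32). Ciart (ENSMUSG00000038550, chromosome 3, 95878503 to 95882251), the repressor with 3 E-boxes in the window above, stood at 5.14 CPM and 8.16 CPM in the Control libraries. NT4 1 held 5.04 CPM and NT4 2 10.2 CPM. The lowest and the highest value were both in the NT4 group. The fit gave a log2 fold change of 0.19 (SE 0.41, 95% interval −0.85 to 1.23), and it was −0.40 without NT4 2 and 0.60 without NT4 1. Clock, which encodes the activator itself (ENSMUSG00000029238, chromosome 5, 76209868 to 76304792), was at 79.0 and 65.6 CPM in the Control libraries and at 76.1 and 55.3 CPM in the NT4 libraries, one inside and one below the Control range. With all 4 libraries, that of Clock was the lowest of the 10 log2 fold changes, at −0.14 (SE 0.20, 95% interval −0.64 to 0.36). Without Control 1 it was −0.003 and without NT4 2 it was 0.074, so this rank depended on the libraries kept.

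Of the 9 genes other than Tef, 0 passed edgeR's test after adjustment, against 0.00% of all genes. Before adjustment 0 were below 0.05 in that test, against 1.99% of all genes, the smallest unadjusted p of the 9 being 0.518. DESeq2 gave an adjusted p for 9 of the 9, and 0 passed, where 63 genes passed over the whole table. None of the 9 had NT4 libraries clear of the Control libraries, where 26.0% of all genes tested did. By direction 3 of the 9 were above 0 and 6 below, with a median log2 fold change of −0.03 against 0.00 over all genes. For the 9 the median was −0.17 without NT4 1 and 0.07 without NT4 2, so this balance depended on the libraries kept. With all 4 libraries the 95% interval stayed below a log2 fold change of 1 for 7 of the 9, and the exceptions were Hlf and Ciart. A change of the size seen in Tef therefore lay outside the interval of Dbp, Nfil3, Per1, Per2, Per3, Cry1 and Clock, each taken singly, and inside that of Hlf and Ciart. That size is the difference Tef was picked for, and it carries no interval of its own here. With the replicate number as a block, the interval of Ciart ran from −0.35 to 0.64, short of that size, and that of Hlf from −1.08 to 1.26.

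**Figure D2:**
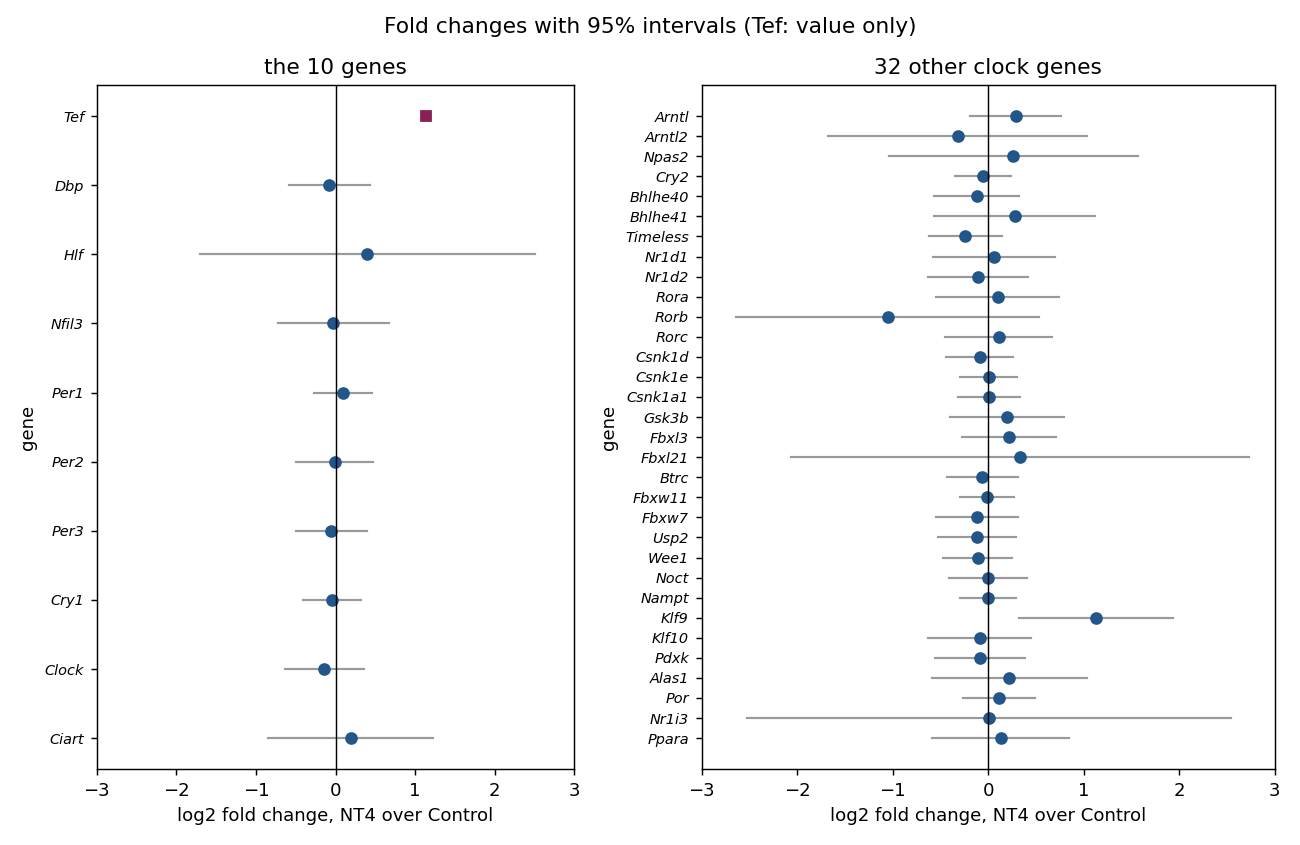
Log2 fold change of NT4 over Control for the 10 genes (left) and for 32 other clock genes and PAR bZIP targets (right). Points mark the estimate and lines its 95% interval from edgeR. Tef is drawn as a square at 1.13 without an interval, since it was picked for this difference, and the intervals of the 9 other genes on the left all cross 0.

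Levels were then compared between the genes on the scale of CPM per kilobase of exon, from the union of the exons in GENCODE M21. In Control the order of mean levels was Nfil3 (20.0), Cry1 (13.0), Per1 (7.29), Clock (5.27), Tef (4.73), Ciart (2.94), Dbp (2.55), Per2 (1.3), Per3 (1.09) and Hlf (0.209). Neighbours whose libraries overlapped in this order were Clock with Tef and Ciart with Dbp, and the other neighbours did not overlap. In NT4 Tef came next below Cry1 at 10.4, with libraries at 9.78 and 11.0, clear of Per1 at 8.39 and 7.17 and of Cry1 at 13.1 and 12.1. The order of the other 9 genes was the same in both groups. The divisor counts all annotated exons, and which of them these cells use was not measured.

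**Figure D3:**
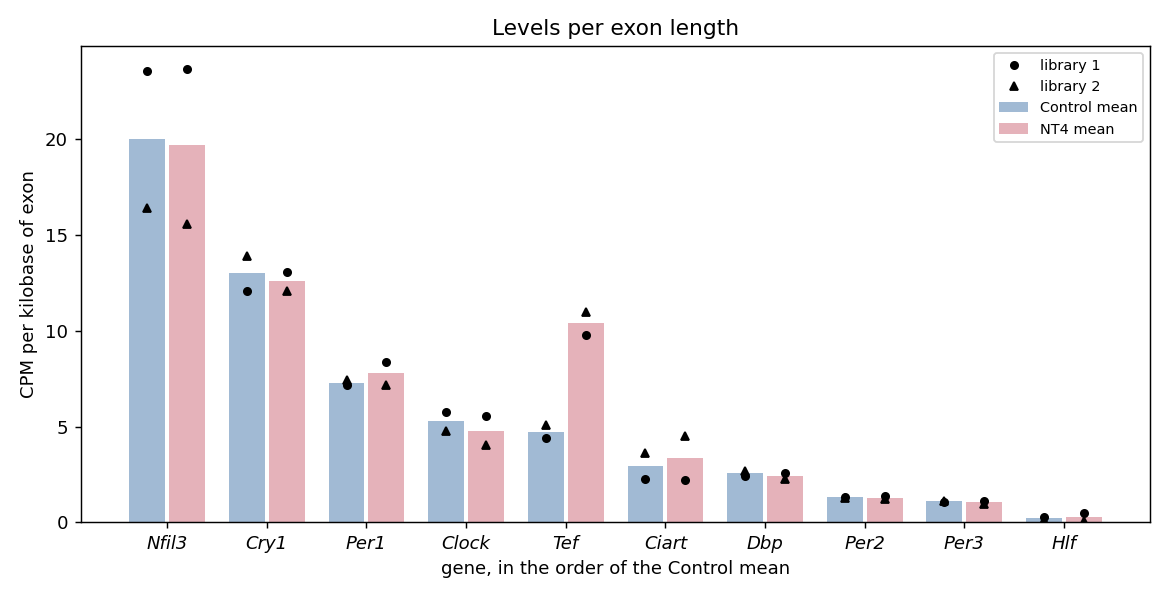
CPM per kilobase of annotated exon for the 10 genes in the order of the Control mean, with bars for the group means and points for the libraries (circles numbered 1, triangles numbered 2). The NT4 bar of Tef, at 10.4, stands above that of Per1, while its Control bar, at 4.73, stands below that of Clock.

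Within each group, several members differed more between the libraries than between the groups. Nfil3, Clock, Hlf and Per2 were lower in both libraries numbered 2 than in both numbered 1, and Ciart was higher. The log2 difference of library 2 from library 1 was −0.53 in Control and −0.60 in NT4 for Nfil3. It was −0.27 and −0.46 for Clock, −1.09 and −2.32 for Hlf, and −0.10 and −0.16 for Per2. For Ciart it was 0.66 and 1.01, and the exact 95% binomial intervals of its libraries, 3.98 to 6.60 and 6.89 to 9.55 CPM of read pairs for Control and 3.98 to 6.28 and 8.62 to 11.5 for NT4, did not overlap within either group, which covers counting error only. For Tef it was 0.20 and 0.17.

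This separation by number took in 5 of the 10 genes, or 50.0%, and 49.1% of all genes tested were separated in the same way, a share close to that of the set. The labels give the numbers without saying what they mark, and library depth goes with them. Of 32 other genes listed for the clock, 5 of them reported PAR bZIP targets, 19 (59.4%) were separated by number. In the libraries numbered 2, 12 were higher and 7 lower, and the targets made up 4 of the 12 and 1 of the 7. Alas1 (0.78 in Control and 0.60 in NT4, log2 difference) and Bhlhe40 (0.15 and 0.37) were among the 12. Among the 7 were Nr1d1 and Nr1d2, which encode the REV-ERB repressors. Nr1d1 stood at 33.4 and 27.5 CPM in the Control libraries and at 38.8 and 24.8 CPM in the NT4 libraries. Nr1d1 shares 263 exon bases with Thra on the opposite strand. Nr1d2 was at 69.7 and 57.7 CPM in the Control libraries and at 69.3 and 49.1 CPM in the NT4 libraries. Rora, an activator at the same elements as the REV-ERB repressors, was at 20.0 and 15.1 CPM in the Control libraries and at 22.2 and 15.3 CPM in the NT4 libraries.

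**Figure D4:**
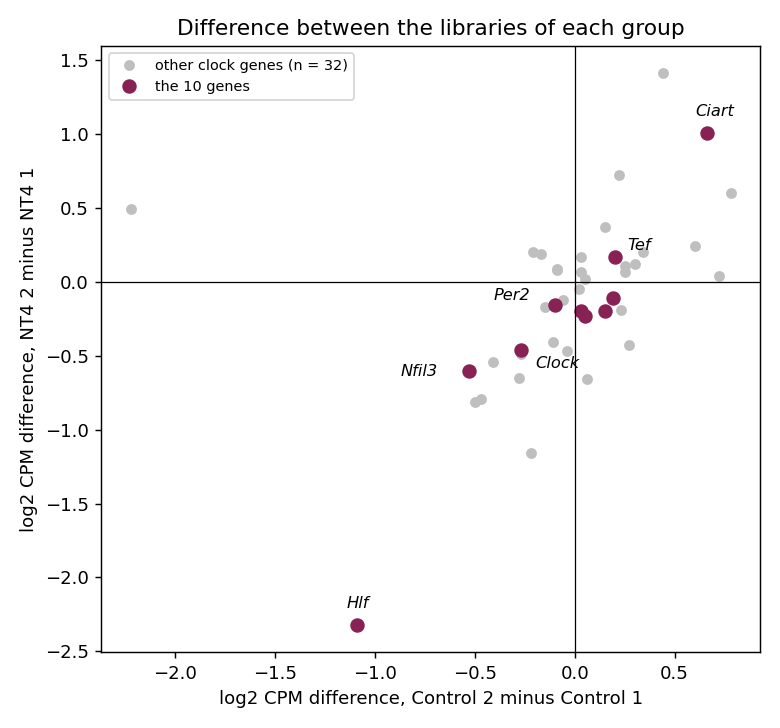
Difference in log2 CPM of library 2 from library 1, in Control on the horizontal axis and in NT4 on the vertical axis. The 10 genes are purple, named where they stand apart, and 32 other clock genes and PAR bZIP targets are grey. Hlf, Nfil3 and Clock lie below 0 on both axes and Ciart above 0 on both, at 0.66 and 1.01.

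The rest of the clock was read from a list of 32 further genes: activators, repressors, kinases and ubiquitin ligases, other output genes and targets ascribed to PAR bZIP factors. All 32 were tested, 17 lay above 0 and 15 below, and the median log2 fold change was 0.00. In edgeR's test 0 of 32 passed the adjusted threshold, against 0.00% of all genes, and 1 was below 0.05 before adjustment, against 1.99% of all genes. The groups did not overlap for 7 of the 32, or 21.9%, against 26.0% of all genes tested. Of these 7, Klf9 and Arntl were higher in NT4, and Cry2, Timeless, Usp2, Wee1 and Rorb were lower.

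Klf9, a zinc finger factor driven by the clock and by glucocorticoid, was the gene of the list nearest to Tef in the size of its difference. It was at 14.6 and 10.6 CPM in the Control libraries and at 34.8 and 20.1 CPM in the NT4 libraries, with both NT4 libraries above both Control libraries. The edgeR fit put its log2 fold change at 1.13 (SE 0.32, 95% interval 0.32 to 1.93), with an unadjusted p of 0.0154 and an adjusted p of 0.9999. It met the study's criterion, as 0.478% of all genes did in the higher direction. Klf9 no longer met it without NT4 1, at a log2 fold change of 0.67, nor without Control 2, at 0.91.

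Arntl, the partner of Clock, was at 9.15 and 8.14 CPM in the Control libraries and at 9.82 and 11.2 CPM in the NT4 libraries, and its log2 fold change was estimated at 0.29 (SE 0.19). Timeless, at −0.24 (SE 0.15), was at 36.3 and 43.1 CPM in the Control libraries and at 33.0 and 34.5 CPM in the NT4 libraries. Cry2, Usp2 and Wee1 were at log2 fold changes of −0.05, −0.12 and −0.11, each smaller than its SE, and Rorb was under 1 CPM in every library. The casein kinases that set the speed of the clock were close to level, at −0.09 (SE 0.14) for Csnk1d and 0.01 (SE 0.12) for Csnk1e.

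Genes ascribed to PAR bZIP control were examined next, and whether they respond to these factors in GCs was not tested. Por, the electron donor of microsomal P450 enzymes, was at 76.5 and 94.3 CPM in the Control libraries and at 88.6 and 96.5 CPM in the NT4 libraries. This gave a log2 fold change of 0.11 (SE 0.15, 95% interval −0.26 to 0.49). Alas1, the first enzyme of haem synthesis, was at 0.22 (SE 0.32) and Ppara, a lipid-sensing nuclear receptor, at 0.13 (SE 0.29). Pdxk, which makes active vitamin B6, was at −0.09 (SE 0.19). For all 4 the groups overlapped, and the library numbered 2 was the higher one in each group. Nr1i3 was too low to read, at 0.0908 to 0.241 CPM, around the floor of 3 read pairs, which is 0.152 to 0.242 CPM by library, and 3304 of its exon bases lie opposite Tomm40l.

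Genes whose profile over the 4 libraries was most like that of Tef were found by distance between centred log2 CPM profiles, among 10675 protein-coding genes at a mean of at least 5 CPM. The nearest 5 were Ntmt1 at a distance of 0.155 log2 units, Emb at 0.197, Ino80b at 0.211, Ninj1 at 0.260 and Smyd5 at 0.313. Emb, at 4.66 and 4.77 CPM in the Control libraries and 9.35 and 12.2 CPM with NT-4, reached that minimum only through its NT4 libraries. Ntmt1, which methylates the N-terminus of proteins, was at 15.6 and 15.8 CPM in the Control libraries and at 34.7 and 38.2 CPM in the NT4 libraries. A gene at one level in all libraries would lie 1.15 from Tef, and 43.5% of ranked genes were nearer than that. Of the other members Per1 alone was nearer, at 1.09 and rank 2897. Dbp was at 1.24 and rank 7248, Nfil3 at rank 9509 and Clock at rank 9626, while Hlf was under the minimum level. With 4 libraries this likeness is a description.

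**Figure D5:**
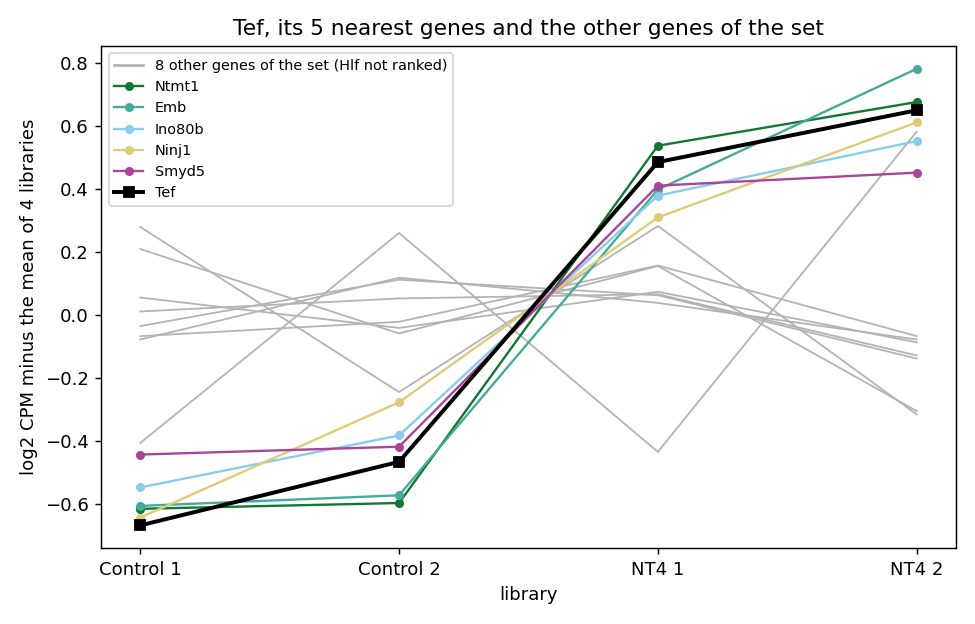
Log2 CPM minus its mean over the 4 libraries for Tef (black), the 5 genes nearest to it (coloured) and 8 other members (grey), with libraries on the horizontal axis. Tef and the 5 nearest genes lie below 0 in both Control libraries and above 0 in both NT4 libraries. None of the grey profiles does so. The 5 were picked for their nearness to Tef, so their shared pattern follows from that choice.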

How the data were processed

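The deposited values are expected counts, estimated by the authors per gene and not normalized. By their methods, reads cleaned with Cutadapt were aligned by HISAT2 (mm10 in the submitters' processing notes), and StringTie and ballgown gave expression. The table and the single-library files held identical counts in 4 of 4 libraries. Symbols came from GENCODE M21 (GRCm38) and matched 55144 of 55385 identifiers. edgeR 4.0.16 in R 4.3.3 was fitted to all 4 libraries with group alone, TMM factors, edgeR's default filter and Benjamini-Hochberg adjustment over 19259 genes, two-sided. log2 CPM for distances used a prior count of 2. SE and intervals came from the quasi-likelihood F statistic and its degrees of freedom. Only 3 splits of 2 against 2 exist, so p-values rest on spread pooled across genes. The procedure was tested on simulated data. Totals were 49520092 to 78704020 counts.

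All 10 members were named whatever their values, as were other clock genes averaging 1 CPM or more whose groups did not overlap and the 5 genes nearest to Tef. Other listed genes named (Rorb, Bhlhe40, Csnk1d, Csnk1e, Nr1d1, Nr1d2, Rora and the PAR bZIP targets) were picked after their values were seen. p-values measure only the spread between these libraries. Members and lists were chosen with earlier results of these data known. Marker lists for macrophages, endothelium, erythroid cells and surface epithelium were also summed, and held at most 3.13, 27.4, 3.95 and 0.765 CPM in any library. Alternatives were DESeq2 1.42.0 size factors, library totals, no filter, the DESeq2 Wald test, a replicate block, counts divided by 4, another prior count and leaving out each library.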

Additional observations from a re-analysis of the deposited data

How the results depend on the processing

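In 6 alternative fits on the 4 libraries, the 54 values of the 9 genes other than Tef kept their sign and were not called. With a library left out, 15 of 36 such values changed sign and 0 were called, for which the cause was not tested. The log2 fold change then ranged from −0.19 to 0.022 for Dbp, −1.22 to 1.15 for Hlf, −0.36 to 0.26 for Nfil3, −0.031 to 0.20 for Per1, −0.10 to 0.065 for Per2, −0.17 to 0.038 for Per3, −0.14 to 0.063 for Cry1, −0.39 to 0.074 for Clock and −0.40 to 0.60 for Ciart. The median of the 10 genes, −0.019, ranged from −0.137 without NT4 1 to 0.070 without NT4 2. Where 1 library stood for a group, its spread was taken from the other group.

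Over all genes, edgeR's 0 calls at the adjusted threshold became 10 without the filter on low counts and 63 in the DESeq2 Wald test. Leaving out a library gave 0 to 37 (12 without Control 1, 37 without Control 2). For the criterion of fold and unadjusted p, 208 genes became 345 without the filter on low counts, 334 by DESeq2 and 119 with counts divided by 4, and between 341 and 512 on leaving out a library. The cause was not tested. The 28 distances to Tef under another prior count or library totals moved by less than the spread of Tef. Scaling by library totals shifts all genes of a library nearly alike, which cancels in such a distance. Those values could therefore hardly move and say nothing on robustness.

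The labels give both groups the same replicate numbers without stating a pairing, and deviations of same-numbered libraries correlated at 0.14 across 19259 genes, which are not independent. With the number as a replicate block, Tef was at 1.13, 0 genes passed an adjusted p of 0.05, and 580 genes were below 0.05 before adjustment, where the fit lacking the block gave 383. The SE then fell to 0.11 for Nfil3, 0.10 for Clock, 0.44 for Hlf and 0.19 for Ciart, whose log2 fold changes were −0.03, −0.15, 0.09 and 0.15. The smallest unadjusted p of the 9 genes was 0.21 in that edgeR fit. Hlf had the fewest read pairs of the 10 genes, 12 to 48 a library.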
